A study of Mus musculus with 10 samples.

Results

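Neurotransmitter release rests on a conserved machine, and 38 of its genes were followed here in the cerebral cortex of *Crtc1*-/- mice and of their WT littermates. The genes were taken as a fixed list, chosen with earlier results of these data known. They encode synaptic vesicle proteins, calcium sensors, fusion proteins, active zone scaffolds, vesicular glutamate transporters and endocytic proteins. All 38 were measured, among 18193 genes in all, each by its brightest probe set (the one with the highest mean over the arrays) among the probe sets annotated to that gene alone. RNA was prepared from the cortex of 5 *Crtc1*-/- and 5 WT female mice, adults of 2 months on the C57BL/6N background, and each was hybridised to its own GeneChip Mouse Genome array, named here by group and replicate number. The 5 *Crtc1*-/- mice carry a knockout of *Crtc1*, and the 5 WT mice carry the intact gene. No mouse was treated. According to the study's methods the animals were housed singly. The labels name no promoter or Cre that would limit the knockout to a cell type, and the samples are whole cortical tissue, in which fewer cells of a type and less RNA per cell cannot be told apart.

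Synaptic vesicles are filled by transporters, dock at the active zone through RIM and Munc13 proteins, and fuse when calcium binds synaptotagmin and drives the assembled SNARE proteins. NSF and its SNAP adaptors then take the SNAREs apart, and dynamin, synaptojanin and amphiphysin return the membrane. CRTC1 is a coactivator of CREB, the transcription factor of cAMP response elements, and CREB is known for activity-dependent transcription in cortical neurons. *Crtc1* itself had log2 signals of 6.28, 6.58, 6.47, 5.96 and 6.60 in the *Crtc1*-/- arrays, against 9.86, 9.84, 9.64, 9.51 and 9.62 in the WT arrays. In this probe set, the brightest of 3 for *Crtc1*, it fell by 3.32 with an adjusted p of 8.35e-08 over all genes, as the labels require. Over 22 alternative ways of processing and fitting, all of which called it, the difference ran from −3.37 to −1.71.

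The arrays were alike in scale, with medians of log2 signal between 5.29 and 5.32 and correlations between arrays from 0.994 to 0.998. Markers of neurons in general (15 genes) had a mean log2 signal of 11.40 to 11.44 in *Crtc1*-/- arrays and 11.41 to 11.45 in WT arrays, and none of the 15 passed the test. Of 10 measured markers of cortical projection neurons and layers, 2 rose in *Crtc1*-/- cortex (0.308% of all genes were called higher), *Lamp5* (0.25) and *Rasgrf2* (0.26). The other 8 did not pass, 6 of the 10 lay below 0, among them *Neurod6* (−0.19), *Tbr1* (−0.18) and *Bcl11b* (−0.14), and the median was −0.03. The mean signal of the 10 ranged over 9.83 to 9.89 in *Crtc1*-/- arrays and 9.77 to 9.94 in WT arrays. The precision of every value is limited by the number of arrays.

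No vesicle or release gene passed an adjusted p of 0.05 over all genes. The count was 0 of 38 lower, where 0.456% of all genes were called lower, and 0 of 38 higher, where 0.308% of all genes were called higher. The differences between *Crtc1*-/- and WT means ran from −0.66 for *Syt5* to 0.59 for *Slc17a6* on the log2 scale. Of the 38, 14 lay above 0 and 24 below 0, and 25 of the 38 differed by less than 0.1. The median difference was −0.02 for the 38 genes and −0.0030 for all genes, and the share above 0 was 36.8% for the 38 and 48.4% for all genes.

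Some genes of the list nevertheless differed by more than their spread before adjustment. An unadjusted p under 0.05 was reached by 8 of the 38 genes (21.1%), against 9.86% of all genes, and 5 of these were lower and 3 higher in *Crtc1*-/- cortex. In 3 genes every *Crtc1*-/- array lay below every WT array (7.89%, against 2.04% of all genes), and all 3 encode RIM proteins (*Rims1*, *Rims2* and *Rims3*). In 1 gene, *Slc17a6*, every *Crtc1*-/- array lay above every WT array (2.63%, against 1.10% of all genes). The list was chosen with earlier results known, so a share above that of all genes can reflect that choice and was not tested. For 28 of the 38 genes the 95% confidence interval of the difference lay within 0.25 of 0 on either side, and for 14 within 0.15. The 38 genes had 98 probe sets, none of which passed an adjusted p of 0.05 over all probe sets, where 0.302% were called in either direction.

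**Figure D1:**
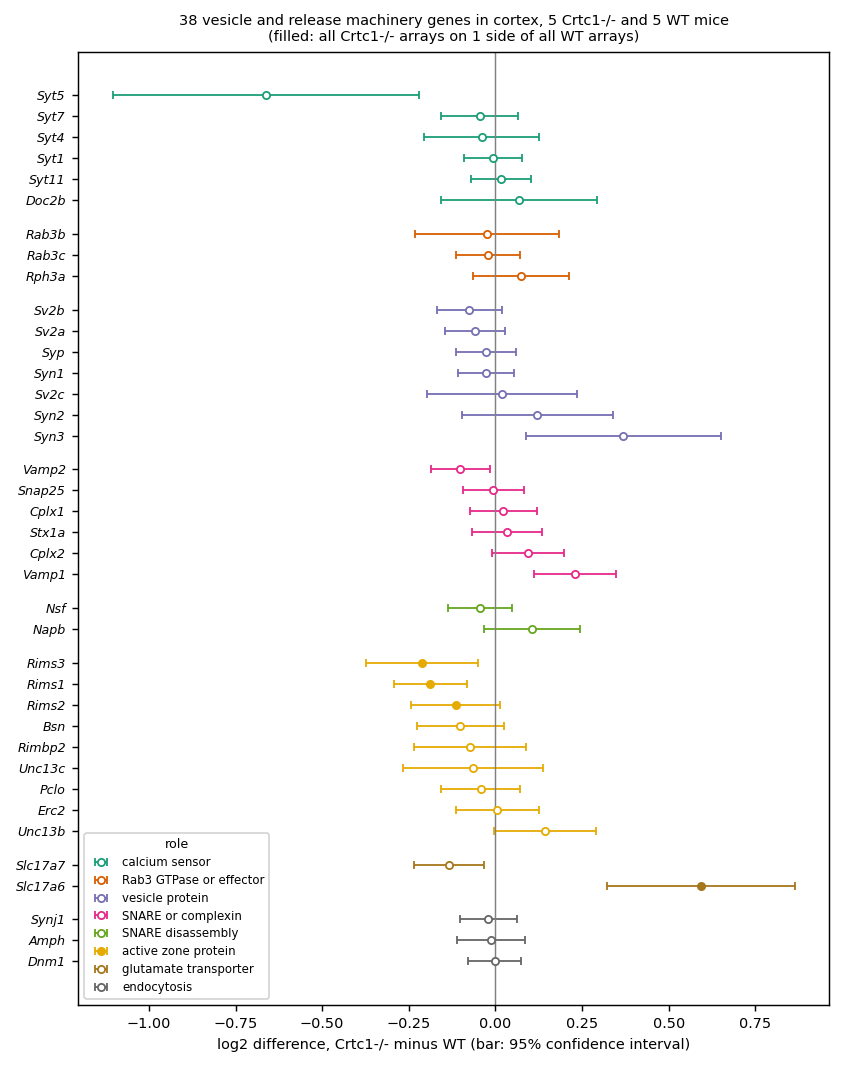
Log2 difference of each of the 38 genes, *Crtc1*-/- minus WT, with its 95% confidence interval, in 8 groups by role; filled points mark genes whose arrays do not overlap between the groups (n = 5 mice each). Most intervals span 0, *Slc17a6* (0.59) lies farthest to the right, *Syt5* (−0.66) farthest to the left, and the 3 RIM genes are the filled points below 0.

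CRTC1 acts through CREB, whose palindromic site is TGACGTCA with the half-site TGACG, so the promoters of the list were searched for these letters on both strands. The half-site is part of the palindrome, so every palindrome match is also a half-site match. RefSeq windows of build GRCm38.p6, from 250 bases before to 50 after a start site, were found for 30 of the 38 genes. The palindrome was held by 1 of 30 (3.33%), against 549 of 27025 genes (2.03%), and the half-site by 6 of 30 (20%), against 6228 (23.0%). The 6 genes were *Rab3b*, *Cplx1*, *Stx1a*, *Slc17a6*, *Synj1* and *Syn1*. Printed here, 5′ to 3′ on the strand of the gene, are the windows of *Syn1* (chrX:20920869-20921168, minus strand), the one with the palindrome, and *Slc17a6* (chr7:51624387-51624686, plus strand), the gene with the smallest p and the one of its 2 windows with a match, and of *Rims1* (chr1:22806109-22806408, minus strand) and *Rims3* (chr4:120854549-120854848, plus strand), whose groups do not overlap. Capitals mark the matches, which begin 159 bases before the start site in *Syn1* and 102 before it in *Slc17a6*.
Syn1: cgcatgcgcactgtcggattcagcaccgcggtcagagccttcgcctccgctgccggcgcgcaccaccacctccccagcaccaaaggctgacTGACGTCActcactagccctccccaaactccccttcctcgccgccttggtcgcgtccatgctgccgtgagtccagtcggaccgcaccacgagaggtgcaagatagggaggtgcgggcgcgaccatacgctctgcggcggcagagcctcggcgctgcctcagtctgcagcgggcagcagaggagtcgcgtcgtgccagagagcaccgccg
Slc17a6: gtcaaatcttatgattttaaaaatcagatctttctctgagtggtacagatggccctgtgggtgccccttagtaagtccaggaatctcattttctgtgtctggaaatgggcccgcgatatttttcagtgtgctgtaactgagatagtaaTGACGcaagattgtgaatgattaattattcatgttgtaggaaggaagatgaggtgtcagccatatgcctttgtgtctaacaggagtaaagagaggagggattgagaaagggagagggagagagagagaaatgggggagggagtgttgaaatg
Rims1: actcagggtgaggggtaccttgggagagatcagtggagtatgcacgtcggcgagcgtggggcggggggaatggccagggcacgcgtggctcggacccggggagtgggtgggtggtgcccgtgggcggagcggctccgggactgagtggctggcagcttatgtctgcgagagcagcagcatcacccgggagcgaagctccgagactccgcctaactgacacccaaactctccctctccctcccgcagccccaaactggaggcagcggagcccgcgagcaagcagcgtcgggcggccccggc
Rims3: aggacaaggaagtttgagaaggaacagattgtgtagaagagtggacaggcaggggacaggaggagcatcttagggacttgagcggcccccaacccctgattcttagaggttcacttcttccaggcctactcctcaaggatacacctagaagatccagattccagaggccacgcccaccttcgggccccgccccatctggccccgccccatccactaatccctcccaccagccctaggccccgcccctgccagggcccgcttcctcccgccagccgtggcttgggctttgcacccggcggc
*Syn1*, with the palindrome, differed by −0.03 (95% interval −0.11 to 0.05), *Slc17a6*, with the half-site, by 0.59, and *Rims1* and *Rims3*, with no match in these windows, by −0.19 and −0.21. A match describes the letters only, and no binding was measured.

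The smallest adjusted p of the list was that of a vesicular glutamate transporter, *Slc17a6*. It encodes VGLUT2, which is known mainly from thalamic and other subcortical neurons and their axons, and *Slc17a7* encodes VGLUT1, the main transporter of cortical pyramidal neurons. The *Slc17a6* log2 signal was 8.88, 8.50, 8.53, 8.80 and 8.67 in *Crtc1*-/- arrays, against 7.91, 7.85, 7.88, 8.34 and 8.43 in WT arrays. The lowest *Crtc1*-/- array was above the highest WT array, and WT 4 and WT 5 were the WT arrays nearest to the *Crtc1*-/- range. The difference was 0.59 (SE 0.12, 95% interval 0.32 to 0.87), or 1.51-fold, with an adjusted p of 0.0574 over all genes and an exact two-sided permutation p of 0.00794, the smallest that 5 against 5 arrays can give. Without WT 5 the difference was 0.68 and passed the test (adjusted p = 0.0237), the one of 22 alternatives in which it did. With the mean of hippocampal markers as a covariate it was 0.30, and the adjusted p ranged from 0.0237 to 0.938 over the alternatives. That marker mean itself ran lower in *Crtc1*-/- arrays (5.79 to 5.90) than in WT arrays (5.89 to 6.07). The fit with it therefore also takes up part of the genotype difference. A dimmer probe set of *Slc17a6* differed by 0.57 (SE 0.19), with 7.02 to 7.57 in *Crtc1*-/- arrays and 6.22 to 7.27 in WT arrays, which overlap.

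*Slc17a7* differed in the other direction. Its log2 signal was 10.12, 10.24, 10.21, 10.20 and 10.11 in *Crtc1*-/- arrays and 10.39, 10.31, 10.30, 10.35 and 10.21 in WT arrays. The difference of −0.13 (SE 0.05, 95% interval −0.24 to −0.03) did not pass over all genes (adjusted p = 0.319, exact permutation p = 0.0238), and WT 5 lay inside the *Crtc1*-/- range. Taken within each array, *Slc17a6* minus *Slc17a7*, set to 0 at the WT mean, was 0.49 to 0.99 in *Crtc1*-/- arrays and −0.25 to 0.45 in WT arrays. This pair was chosen after its values were seen and is given without a test. Because VGLUT2 is known from thalamic neurons, 12 thalamic marker genes were set beside it: none passed the test, 7 of 12 lay below 0, and their median difference was −0.01. Of these, *Rgs16* differed most, by 0.29 (adjusted p = 0.0834). It was the 1 of the 12 with every *Crtc1*-/- array above every WT array, as 1.10% of all genes had. The mean log2 signal of the 12 was 6.79 to 6.89 in *Crtc1*-/- arrays and 6.80 to 6.88 in WT arrays. Their WT means ran from 3.09 (*Gbx2*) to 10.79 (*Ptpn4*), and whether they track thalamic tissue in these samples was not tested.

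In the active zone group most genes were below their WT mean. Of its 9 genes, 7 lay below 0 and 2 above, with a median of −0.07 and a range from −0.21 to 0.14. RIM proteins tether calcium channels and recruit Munc13 and Rab3 at the release site, and *Rims3* encodes a short form with only the C-terminal part. *Rims1* had log2 signals of 10.90, 10.95, 10.91, 10.90 and 10.90 in *Crtc1*-/- arrays, against 11.26, 11.08, 11.08, 11.00 and 11.08 in WT arrays. The *Crtc1*-/- arrays were close together (SD 0.02) and all below the WT arrays (SD 0.09). The difference of −0.19 (SE 0.05, 95% interval −0.29 to −0.08) had an adjusted p of 0.136 and an exact permutation p of 0.00794, and of 22 alternatives it passed in 1, the trended and robust variance prior (adjusted p = 0.0266, with a range up to 0.801 over the others).

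*Rims3* gave 9.33, 9.30, 9.18, 9.25 and 9.26 in *Crtc1*-/- arrays, against 9.38, 9.44, 9.43, 9.36 and 9.78 in WT arrays. The groups do not overlap, and WT 5 was far above the other WT arrays. The difference was −0.21 (SE 0.07, 95% interval −0.37 to −0.05, adjusted p = 0.332), and −0.14 without WT 5. *Rims2* gave 10.17, 10.18, 10.02, 10.19 and 10.18 in *Crtc1*-/- arrays, against 10.19, 10.21, 10.46, 10.22 and 10.22 in WT arrays. Except for *Crtc1*-/- 3 and WT 3, its arrays lay within a narrow band, and the group ranges touch without overlapping. The difference was −0.11 (SE 0.06, 95% interval −0.24 to 0.01, adjusted p = 0.569), and −0.07 without WT 3.

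The other probe sets of the RIM genes were lower as well. All 9 probe sets of *Rims1*, *Rims2* and *Rims3* lay below 0, with differences from −0.30 to −0.07, whereas 49 of the 98 probe sets of the whole list (50%) lay below 0. In 5 of the 9 every *Crtc1*-/- array lay below every WT array, 3 of them in *Rims2*, against 1.37% of all probe sets. The 5 include the brightest probe set of each gene, whose values singled these genes out, so the share is no separate evidence. Of the 60 other probe sets of the whole list, 2 had every *Crtc1*-/- array below every WT array, both of *Rims2*. The second *Rims2* probe set ranged over 9.75 to 9.88 in *Crtc1*-/- arrays and 9.95 to 10.12 in WT arrays, a difference of −0.24 (SE 0.05, adjusted p = 0.0902 over all probe sets). The third ranged over 9.29 to 9.55 in *Crtc1*-/- arrays and 9.56 to 9.74 in WT arrays (−0.19, adjusted p = 0.352). The second *Rims1* probe set, nearly as bright as the first, differed by only −0.07 (adjusted p = 0.841). The second *Rims3* probe set differed by −0.17 (adjusted p = 0.781), and the groups overlap in both. When all probe sets of a gene were averaged in place of taking the brightest, *Rims2* differed by −0.18 (adjusted p = 0.0814). Averaged in this way, *Rims1* differed by −0.13. Probe sets of a gene share the RNA of the same arrays, so they are not independent samples, and they were singled out after their values were seen.

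**Figure D2:**
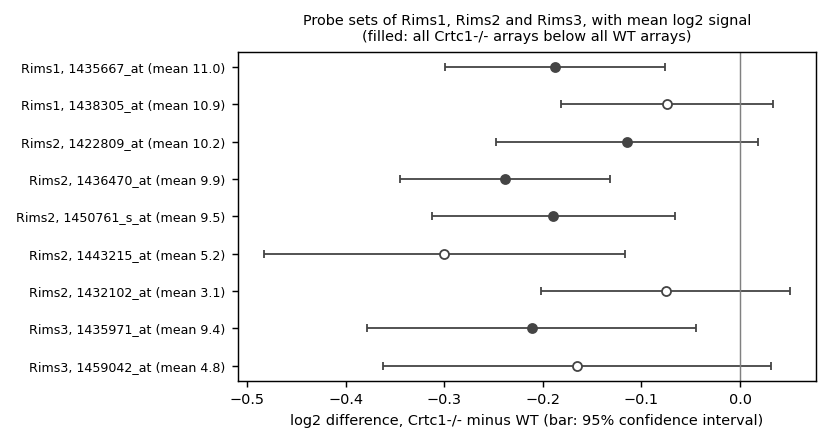
Log2 difference, *Crtc1*-/- minus WT, with its 95% confidence interval for each of the 9 probe sets of *Rims1*, *Rims2* and *Rims3*, with the mean log2 signal of the probe set beside its name (n = 5 mice per group). All points lie below 0, between −0.30 and −0.07, and the 5 filled points have every *Crtc1*-/- array below every WT array, as 1.37% of all probe sets do. The filled points include the brightest probe set of each gene, whose values singled these genes out.

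The remaining active zone genes were near 0 or scattered. *Bsn* and *Pclo*, the giant scaffolds bassoon and piccolo, differed by −0.10 and −0.04, *Rimbp2*, a RIM-binding protein, by −0.07, and *Erc2*, a scaffold of the ELKS family, by 0.01. The Munc13 priming factors *Unc13b* and *Unc13c* differed by 0.14 and −0.07. The 95% intervals of these 6 genes all include 0. In *Bsn*, WT 4 at 10.61 stood below the other WT arrays at 10.79 to 10.85.

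Among the SNAREs and complexins the vesicle SNAREs *Vamp1* and *Vamp2* differed in opposite directions. *Vamp2*, synaptobrevin 2, is the main vesicle SNARE of the forebrain, and *Vamp1* its close paralog, best known from the spinal cord and brainstem. *Vamp1* gave 10.34, 10.21, 10.27, 10.17 and 10.35 in *Crtc1*-/- arrays and 10.05, 9.93, 10.001, 10.03 and 10.18 in WT arrays. Only WT 5 reached the *Crtc1*-/- range. The difference was 0.23 (SE 0.05, 95% interval 0.11 to 0.35), or 1.17-fold, with an adjusted p of 0.0966 and an exact permutation p of 0.0159, and of 22 alternatives it passed in 1, the trended and robust prior (adjusted p = 0.0215). With the mean of hippocampal markers as a covariate, which itself differed between the groups, the difference was 0.04 (adjusted p = 0.988).

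*Vamp2* gave 11.59, 11.49, 11.50, 11.50 and 11.54 in *Crtc1*-/- arrays and 11.58, 11.66, 11.64, 11.59 and 11.65 in WT arrays. In *Vamp2*, 4 *Crtc1*-/- arrays lay below all WT arrays and *Crtc1*-/- 1 lay among them, and the difference was −0.10 (SE 0.04, 95% interval −0.19 to −0.02, adjusted p = 0.387, exact permutation p = 0.0238). Within each array *Vamp1* minus *Vamp2*, set to 0 at the WT mean, was 0.26 to 0.39 in *Crtc1*-/- arrays and −0.14 to 0.11 in WT arrays, a pair also chosen after the values were seen. The membrane SNAREs were close to 0: *Snap25* differed by −0.0058, with 13.39 to 13.52 in *Crtc1*-/- arrays and 13.41 to 13.52 in WT arrays, and *Stx1a*, syntaxin 1A, by 0.03. The complexins, which clamp and promote fusion, differed by 0.02 (*Cplx1*) and 0.09 (*Cplx2*). *Nsf*, the ATPase that takes SNARE complexes apart, differed by −0.04 and *Napb*, its adaptor beta-SNAP, by 0.11. In *Napb*, WT 1 was the lowest array at 11.60, against 11.82 to 11.96 in the other WT arrays. With arrays left out the *Napb* difference ran from 0.05 to 0.14.

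Of the 6 genes grouped here as calcium sensors, the synaptotagmins and *Doc2b*, 4 lay below 0 and 2 above. *Syt5*, a synaptotagmin of dense core and synaptic vesicles, had the largest difference of the list and the widest standard error. It gave 8.49, 8.50, 7.84, 8.54 and 7.81 in *Crtc1*-/- arrays and 9.18, 9.23, 9.12, 8.52 and 8.43 in WT arrays. WT 4 and WT 5 lay with the higher *Crtc1*-/- arrays, well below the other WT arrays, and in both groups the arrays fell into a high and a low cluster. The difference of −0.66 (SE 0.20, 95% interval −1.10 to −0.22), or 0.632-fold, did not pass (adjusted p = 0.238, exact permutation p = 0.0635). *Syt1*, the sensor of fast synchronous release, was among the most precisely measured, at −0.0078 with a 95% interval of −0.09 to 0.08. *Syt7*, the high-affinity sensor of asynchronous release, differed by −0.05, and *Syt4* and *Syt11*, which bind little or no calcium, by −0.04 and 0.02. *Doc2b*, a soluble sensor with C2 domains, differed by 0.07.

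**Figure D3:**
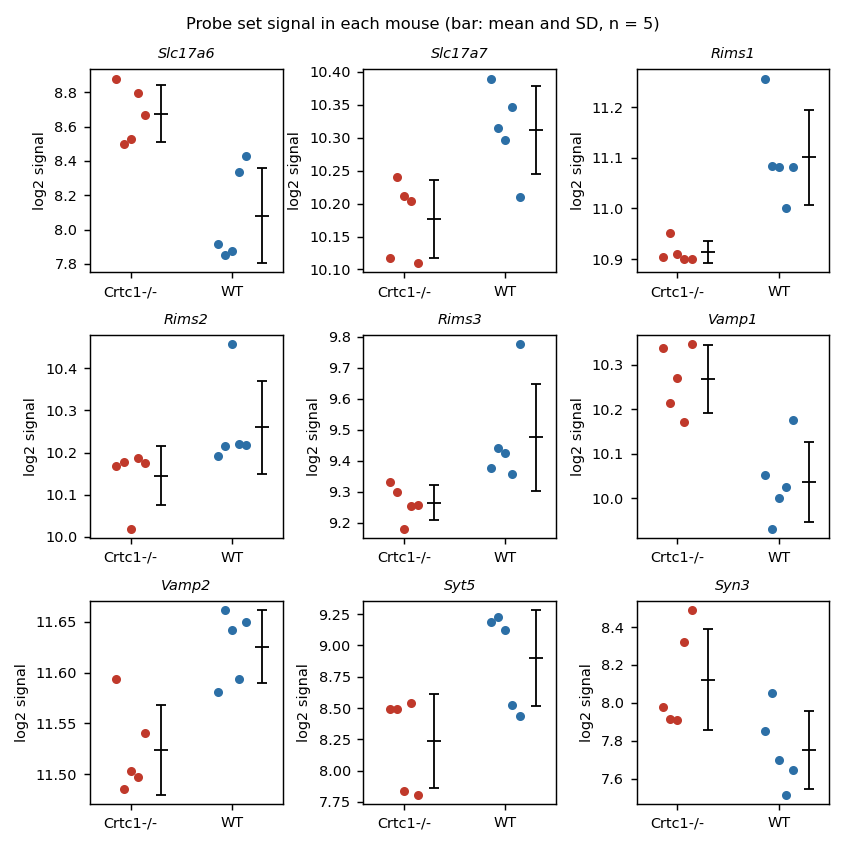
Log2 signal of 9 genes in each mouse, *Crtc1*-/- left and WT right, with the mean and SD beside the points (n = 5 each; the vertical axes do not start at 0 and differ between genes). *Slc17a6* lies higher in all *Crtc1*-/- mice (8.50 to 8.88) than in WT mice (7.85 to 8.43), the 3 RIM genes lie lower in all *Crtc1*-/- mice, and the groups of the other genes overlap.

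Vesicle proteins lay near 0 with one exception. The synapsins tether vesicles to one another and to actin. *Syn3*, known from developing neurons and adult neurogenic zones, gave 7.98, 7.92, 7.91, 8.32 and 8.49 in *Crtc1*-/- arrays and 7.85, 8.05, 7.70, 7.52 and 7.65 in WT arrays. *Crtc1*-/- 4 and 5 were above all WT arrays, and the other *Crtc1*-/- arrays lay within the WT range. The difference was 0.37 (SE 0.13, 95% interval 0.09 to 0.65, adjusted p = 0.327, exact permutation p = 0.0556). *Syn1* differed by −0.03 and *Syn2* by 0.12. Most of the *Syn2* difference came with a single array, WT 1, at 11.01 against 11.51 to 11.61 in the other WT arrays, and without it the difference was 0.01. Synaptophysin (*Syp*) differed by −0.03, and the vesicle glycoproteins *Sv2a* and *Sv2b* by −0.06 and −0.08. *Sv2c* differed by 0.02, but its only probe set was dim, with a mean signal above only 21.3% of all probe sets.

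Rab3 GTPases guide vesicles to the active zone, and their effector rabphilin is encoded by *Rph3a*. *Rab3b* and *Rab3c* both differed by −0.02 and *Rph3a* by 0.07. The endocytic genes were the most even group. *Synj1* (synaptojanin), *Amph* (amphiphysin) and *Dnm1* (dynamin 1) differed by −0.02, −0.01 and −0.0020, and the widest bounds of their 95% intervals were −0.11 and 0.09.

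The wider presynaptic gene list, 90 genes of vesicle acidification, docking, priming and clathrin-mediated recycling, had 84 measured genes. One fell, none rose (0.456% and 0.308% over all genes), and the median difference was −0.01. In 8 of the 84 every *Crtc1*-/- array lay below every WT array (2.04% of all genes) and in 3 above (1.10%). The gene that fell was *Doc2a*, the paralog of *Doc2b* and a calcium sensor of spontaneous and asynchronous release in neurons. It gave 8.47, 8.65, 8.63, 8.57 and 8.49 in *Crtc1*-/- arrays and 9.15, 9.002, 8.90, 9.01 and 8.98 in WT arrays, with a wide gap between the groups. It fell by 0.45 (SE 0.06, 95% interval −0.57 to −0.33), to 0.734-fold, with an adjusted p of 0.00248 over all genes. Left-out arrays kept the adjusted p between 0.00338 and 0.00943, while a block for the replicate number gave 0.0506 at a difference of −0.45. The mean of oligodendrocyte or of hippocampal markers as a covariate gave 0.0568 and 0.366, at differences of −0.44 and −0.43. Both marker means themselves differed between the groups. Within each array *Doc2a* minus *Doc2b*, set to 0 at the WT mean, was −0.87 to −0.34 in *Crtc1*-/- arrays and −0.04 to 0.04 in WT arrays. This pair was formed because *Doc2a* had passed, so it adds no separate evidence and is given without a test.

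**Figure D4:**
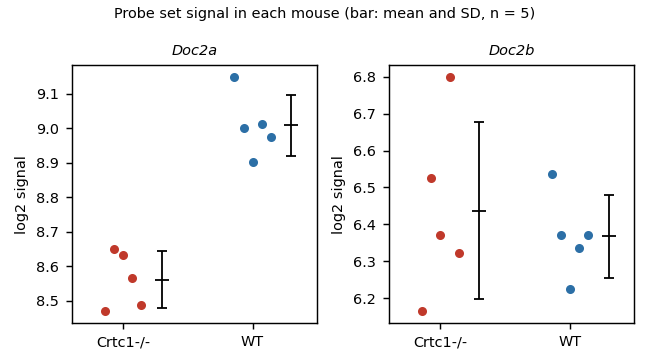
Log2 signal of *Doc2a* and *Doc2b* in each mouse, *Crtc1*-/- left and WT right, with the mean and SD beside the points (n = 5 each; the vertical axes do not start at 0). *Doc2a* is lower in all *Crtc1*-/- mice (8.47 to 8.65, against 8.90 to 9.15 in WT mice), while *Doc2b* overlaps between the groups.

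The next genes of this wider list did not pass. *Ppfia4*, liprin-alpha-4 of the active zone, differed by 0.27 (adjusted p = 0.0734). It passed in 4 of 22 alternatives (adjusted p from 0.0255), and differed by 0.12 without probe sets prone to cross-hybridisation (adjusted p = 0.538). *Stxbp5*, tomosyn, which holds back SNARE assembly, differed by −0.18 (adjusted p = 0.147), *Stxbp6*, amisyn, by 0.16 (adjusted p = 0.151), and *Syngr1*, the vesicle protein synaptogyrin 1, by −0.12 (adjusted p = 0.216). With the trended and robust prior *Stxbp6* and *Syngr1* passed (adjusted p = 0.0403 and 0.0440), and *Syngr1* differed by −0.05 when its probe sets were averaged. Singled out after their values were seen, *Rims4*, the fourth RIM gene, differed by −0.05 with overlapping groups (8.35 to 8.87 in *Crtc1*-/- arrays and 8.38 to 8.78 in WT arrays), and *Unc13a*, Munc13-1, by −0.20 (adjusted p = 0.223). *Unc13a* lies on chromosome 8, as *Crtc1* does, 57 protein-coding genes away. *Rab3a*, 19 genes away on the same chromosome, differed by −0.03. None of the 38 genes is on chromosome 8.

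Taken as a median over its genes, the list lay close to its WT means in every array. The WT arrays themselves set these means. A median does not show opposite differences of single genes, such as those of *Syt5* and *Slc17a6*. The median deviation of the 38 genes from their WT means was −0.04 to 0.03 in *Crtc1*-/- arrays and −0.03 to 0.02 in WT arrays. The number of the 38 genes above their WT mean was 14 to 24 in *Crtc1*-/- arrays and 15 to 23 in WT arrays.

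**Figure D5:**
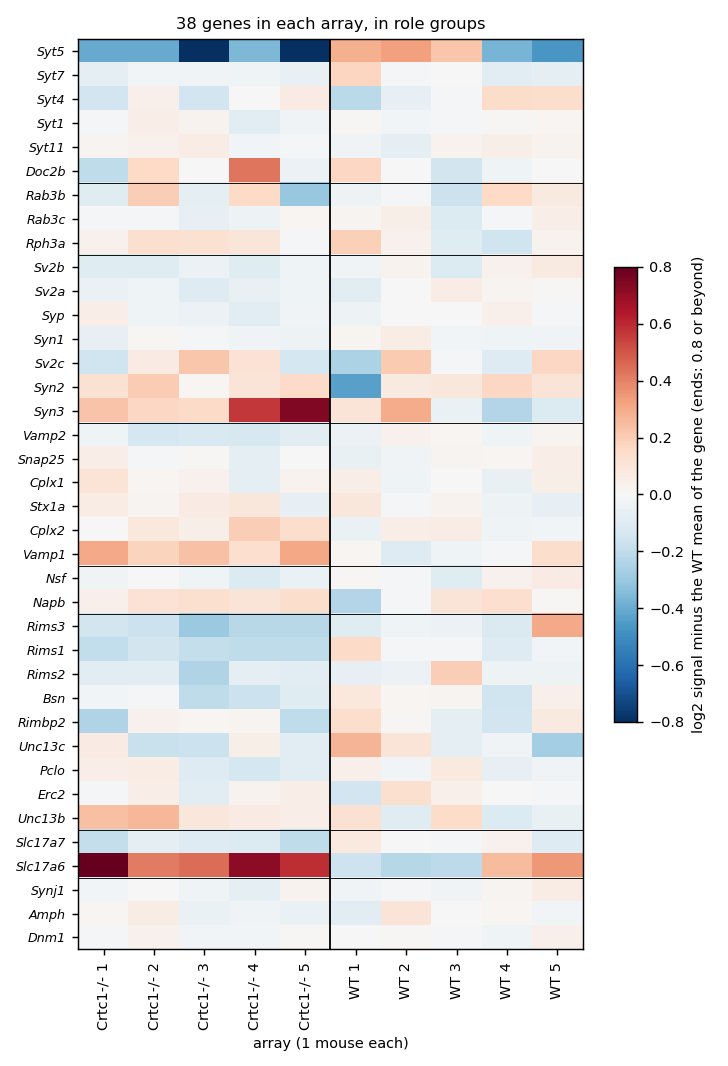
Log2 signal of each of the 38 genes in each array minus the WT mean of that gene, *Crtc1*-/- arrays left and WT arrays right, in 8 groups by role (red higher, blue lower, n = 5 mice each). Most cells are pale, *Slc17a6* and *Vamp1* are red in all *Crtc1*-/- arrays, and *Syt5*, *Slc17a7* and the 3 RIM genes are blue in all of them. They are not alone in this. All *Crtc1*-/- arrays also lie above the WT mean in *Syn2*, *Syn3*, *Cplx2*, *Napb* and *Unc13b*. All lie below it in *Syt7*, *Sv2a*, *Sv2b*, *Vamp2* and *Bsn*.

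Markers of some other cells and regions also differed between the groups, and those of others did not. Of 13 measured hippocampal markers, 2 fell, *Fibcd1* and *Fam163b* (0.456% of all genes were called lower), and 9 lay below 0. The mean log2 signal of the 13 was 5.79 to 5.90 in *Crtc1*-/- arrays and 5.89 to 6.07 in WT arrays. All 12 measured oligodendrocyte markers lay above 0, none passed, and their mean was 9.92 to 10.23 in *Crtc1*-/- arrays and 9.64 to 9.97 in WT arrays. All 7 measured markers of oligodendrocyte precursors also lay above 0, with a mean of 8.28 to 8.42 in *Crtc1*-/- arrays and 8.18 to 8.29 in WT arrays. Of 12 interneuron markers, 10 lay below 0, with a mean of 9.16 to 9.26 in *Crtc1*-/- arrays and 9.20 to 9.30 in WT arrays, and none of either list passed. The exact permutation p of the interneuron mean was 0.349. For the marker means of astrocytes, microglia, endothelium and striatum it was 0.198, 0.897, 0.603 and 0.849. With the hippocampal mean as a covariate, the differences were 0.30 for *Slc17a6*, 0.04 for *Vamp1*, −0.21 for *Syt5* and −0.07 for *Slc17a7*, and −0.39 for *Rims3* and 0.68 for *Syn3*. With the oligodendrocyte mean as a covariate, *Syt5* differed by −0.38 and *Syn3* by 0.65. No vesicle or release gene passed in either fit. RNA integrity, read as the 3′ minus 5′ signal of the actin and *Gapdh* control probe sets, was 0.364 to 0.440 in *Crtc1*-/- arrays and 0.392 to 0.473 in WT arrays. The hippocampal and oligodendrocyte means themselves differed between the groups, so a fit with either also takes up part of the genotype difference. The part of cell composition and of RNA integrity in these differences was not tested.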

How the data were processed

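Total RNA from the cortices of 5 *Crtc1*-/- and 5 WT mice was labelled with a 3′ in vitro transcription kit and hybridised to GeneChip Mouse Genome arrays. The authors deposited 1 table of log2 signals per probe set, and their background correction and normalization are not given in the sources used here. Sorted values differed between arrays by at most 0.165. The authors checked array quality before analysis. Of 45101 probe sets, 64 were controls, 34945 were annotated to 1 gene, 932 to several and 9160 to none, and 34741 of the first were matched to GRCm38.p6 by gene identifier. The brightest probe set, by its mean over the 10 arrays, stood for each of 18193 genes, with no filter on dim signals.

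*Crtc1*-/- was compared with WT by limma (version 3.58.1 in R 4.3.3), with eBayes moderation and Benjamini-Hochberg adjustment over all genes at 0.05. The fit was tested on simulated data. Single genes were also compared by an exact two-sided permutation test of the means (scipy 1.17.1). Replicates are separate mice. The 38 genes and the marker lists were chosen with earlier results of these data known. Values in every array are given for genes past the threshold or, since fewer than 8 were, for the 8 of the 38 with the smallest p, for *Rims2* because its groups do not overlap, and for the wider list for genes past the threshold, with the 4 next by p given by their differences. Alternatives were quantile normalization, median centring, a filter on the dimmest 25% of signals, removal of probe sets prone to cross-hybridisation, other variance priors, array weights, a block for the replicate number, averaging over the probe sets of each gene, marker means and the 3′ to 5′ ratio as covariates, and each array left out in turn.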

Additional observations from a re-analysis of the deposited data

Results flagged for a closer look

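In 94 groups of 5 arrays (47 genes in each group of mice), 6 held an array far from the rest, measured as the gap to its nearest neighbour over the whole range, and chance alone gives about 1 in 20 groups. The *Rims2* signal was 10.02 in *Crtc1*-/- 3, against 10.17 to 10.19 in the other *Crtc1*-/- arrays, and 10.46 in WT 3, against 10.19 to 10.22 in the other WT arrays. *Rims1* was 10.95 in *Crtc1*-/- 2, against 10.90 to 10.91 in the others of its group, a small gap in a very tight group. *Rims3* was 9.78 in WT 5, against 9.36 to 9.44 in the other WT arrays. *Syn2* was 11.01 in WT 1, against 11.51 to 11.61 in the other WT arrays. Another of its 6 probe sets was also lowest in that array, at 9.71 against 10.48 to 10.83, and the rest were not. In its next brightest probe set WT 1 was 11.01, inside a WT range of 10.92 to 11.08. *Bsn* was 10.61 in WT 4, against 10.79 to 10.85 in the other WT arrays.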

How the results depend on the processing

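Across 22 alternatives, 10 of which left out an array, 22 of the 38 genes kept the direction of their difference in every one, and 16 reversed at least once, all with a difference of 0.07 or less in size. The median of the 38 genes stayed between −0.04 and −0.0062 (−0.03 to −0.0065 with arrays left out). Over all genes 83 were called lower and 56 higher. The counts lower and higher were 148 and 88 with a trended and robust prior, 49 and 26 without moderation, 36 and 26 with the replicate block, 28 and 21 with the oligodendrocyte mean, 6 and 4 with the hippocampal mean, and 51 lower with the 3′ to 5′ ratio. They were 55 to 69 lower and 33 to 51 higher with arrays left out. Of the 38 genes, 1 was called lower (*Rims1*) and 1 higher (*Vamp1*) with the trended and robust prior, and 0 to 1 higher with arrays left out (*Slc17a6*, without WT 5). Of the wider presynaptic list, the number called lower was 2 with the trended and robust prior and 0 with the replicate block, the oligodendrocyte mean or the hippocampal mean. The number called higher was 1 with quantile normalization, 2 with the trended and robust prior, 1 with array weights and 0 to 1 with arrays left out. The causes were not tested.

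Reversed differences were as follows. Quantile normalization gave 0.014 for *Syt1*, and array weights −0.019 for *Sv2c* and −0.0019 for *Erc2*. Averaging over probe sets gave 0.048 for *Syt1*, 0.0078 for *Syt7*, −0.0035 for *Syt11*, 0.029 for *Syp*, 0.026 for *Snap25* and 0.037 for *Pclo*. The oligodendrocyte mean gave 0.00058 for *Syt7*, −0.041 for *Syt11*, 0.023 for *Rab3c*, 0.0028 for *Syn1*, −0.065 for *Sv2c*, 0.098 for *Unc13c*, 0.013 for *Amph*, 0.0092 for *Dnm1* and 0.063 for *Rims4*. The hippocampal mean gave −0.053 for *Syt11*, 0.039 for *Rab3b*, 0.029 for *Syn1*, −0.087 for *Cplx1*, 0.097 for *Unc13c* and 0.063 for *Amph*. The 3′ to 5′ ratio gave −0.0074 for *Erc2* and 0.0036 for *Dnm1*. With arrays left out the ranges were −0.023 to 0.011 for *Syt1*, −0.0028 to 0.028 for *Syt11*, −0.022 to 0.14 for *Doc2b*, −0.079 to 0.046 for *Rab3b*, −0.043 to 0.071 for *Sv2c*, −0.021 to 0.013 for *Snap25*, −0.13 to 0.0027 for *Unc13c*, −0.033 to 0.037 for *Erc2*, −0.034 to 0.013 for *Amph*, −0.012 to 0.0079 for *Dnm1* and −0.14 to 0.0081 for *Rims4*. *Sv2c* was removed by the filter on dim signals.

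Animals with the same replicate number did not deviate together (correlations from −0.262 to 0.0596, and 0 of 5 WT arrays closest to their own number), so the replicate numbers were not taken to pair the mice, and the replicate block is given as an alternative only. With 5 mice in a group, a standard error near 0.05 (the median over the 38 genes was 0.0517) leaves small differences undecided, and dim probe sets such as that of *Sv2c* say little.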
